A study of Mus with 30 samples.

Results

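The hearts of 5 mice infused with angiotensin II (Ang II) were compared with the hearts of 5 mice infused with saline. The 10 hearts were chosen by their group labels, AngII and Control, from the 30 hearts of a study of antihypertensive compounds. Each heart gave 1 rRNA-depleted RNA-seq library from the left part of the heart of a young adult male C57BL/6 mouse. The Ang II mice received 500 ng/kg/min for 28 days and saline in place of a drug, whereas the Control mice received a saline infusion and saline treatment for 28 days. The other 20 mice received the same Ang II dose with a compound. It was labelled ETH, BAI or GAS (gastrodin), each at 5 mg/kg/day, or VAL at 10.4 mg/kg/day. Values of those mice appear here beside those of single transcripts only. The comparison asks which cardiac transcripts differ after 28 days of Ang II.

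Ang II is the effector peptide of the renin-angiotensin system. It acts mainly through the type 1 receptor, which constricts arteries, retains salt through aldosterone and raises blood pressure. In the heart, sustained Ang II is known for myocyte hypertrophy, fibrosis, oxidant production and apoptosis, with induction of fetal genes such as those of the natriuretic peptides. Cardiac tissue holds myocytes, fibroblasts, vascular cells and immune cells, so that a lower transcript in bulk tissue may be fewer cells of a type or less RNA per cell, and these cannot be told apart.

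Each library listed levels of Ensembl mouse transcripts (ENSMUST identifiers) and of merged models (MERGE identifiers). The levels carry no stated unit and were read as FPKM, fragments scaled by transcript length and library size. Merged models whose identifiers differ in the last number alone were taken as models of 1 locus. Only merged models listed in all 10 tables were counted, so a locus may hold other models. Ensembl transcripts of the same gene could not be added to a locus total. No table used here paired these identifiers with gene symbols. Genes of the hypertrophy, fibrosis, apoptosis and inflammation lists and markers of cardiac cell types could therefore not be located, the tissue label was not checked against its markers, and 4 transcripts are named by identifier. The 10 tables shared 31852 transcripts, of which 18354 reached 1 FPKM in at least 5 mice and were tested, 14227 Ensembl transcripts and 4127 merged models. The read depth was unknown. The summed level was 619948 ± 31230 FPKM in Control and 630538 ± 12125 FPKM in Ang II (mean ± SD, n = 5 each), a difference within the spread (two-sided exact permutation test, p = 0.5, adjusted p = 0.5 over 2 relations). Transcripts at 1 FPKM or more numbered 17231 to 20446 in Control mice and 17195 to 18591 in Ang II mice (exact permutation test, p = 0.302, adjusted p = 0.5).

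After Ang II, 1 transcript was higher (0.00545% of those tested) and 6 were lower (0.0327%) at an adjusted p under 0.05 in limma, which was fitted to log2(FPKM + 1) over all tested transcripts. Every fold change below is on that scale, which understates the change of low transcripts. The higher transcript was well expressed in both groups, whereas the 6 lower ones were under 1 FPKM in every Ang II heart. Such transcripts were tested only where every Control heart reached 1 FPKM, so presence there was set by the level filter. At an unadjusted p under 0.05, 846 transcripts were higher (4.61%) and 830 were lower (4.52%), where 5% in all is the share that uniform p-values would give.

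ENSMUST00000106112 was the transcript that rose at the adjusted threshold. Its level in the Control mice was 69.8, 67.5, 73.8, 73.4 and 71.5 FPKM, and in the Ang II mice 122, 110, 105, 138 and 117 FPKM. All 5 Ang II mice lay above the highest Control mouse, and the Control mice lay within a narrow band. The means were 71.2 ± 2.61 FPKM in Control and 119 ± 12.9 FPKM in Ang II (SD, n = 5 each), a ratio of 1.67 (log2 fold change 0.72, SE 0.08, adjusted p = 0.0232 in limma). This call passed in 14 of the 27 alternative settings in which the transcript was tested, with an adjusted p between 0.000317 and 0.244. The log2 fold change lay between 0.67 and 0.76 in those settings. In the Ang II mice that also received a compound, the mean was 104 ± 12.7 FPKM with ETH, 92.4 ± 5.22 FPKM with BAI, 107 ± 15.8 FPKM with GAS and 91.0 ± 4.77 FPKM with VAL (SD, n = 5 each). All 20 of these hearts lay above the highest Control heart.

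The next transcript by the naming rule among those that were higher, MERGE.17485.8, stayed short of the adjusted threshold. Levels of 0.057, 0, 0.691, 0 and 0 FPKM were listed in the Control mice and levels of 2.23, 3.17, 3.85, 3.64 and 1.38 FPKM in the Ang II mice. The groups did not overlap, and 3 of 5 Control mice were listed at 0 (log2 fold change 1.73, SE 0.24, adjusted p = 0.0641 in limma). It passed in 2 of the 20 alternative settings in which it was tested (adjusted p up to 0.381 in limma). Both were fits on the same transcripts, without Control mouse 5116 (adjusted p = 0.0369) or without Ang II mouse 5156 (adjusted p = 0.0335 in limma). The locus had 1 other model, which was at 0 in 3 Control and 2 Ang II mice. That model did not pass the adjusted threshold (log2 fold change 0.42, SE 0.53, adjusted p = 0.843 in limma). Summed over both models, the locus was at 0.919 ± 0.972 FPKM in Control and 4.27 ± 1.20 FPKM in Ang II (log2 fold change 1.59, SE 0.34, adjusted p = 0.294 in limma). Every Ang II mouse lay above the highest Control mouse on this sum, which includes MERGE.17485.8, itself picked for groups that do not overlap. MERGE.17485.8 reached 1 FPKM in 3 of 5 mice with ETH, 2 with BAI, 3 with GAS and 3 with VAL.

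ENSMUST00000179728 fell most by the test. Its level was 19.0, 19.6, 16.3, 13.9 and 20.8 FPKM in the Control mice and 0.0506, 0, 0.0490, 0.154 and 0.0710 FPKM in the Ang II mice. The lowest Control mouse was 90.02 times the highest Ang II mouse (log2 fold change −4.14, SE 0.13, adjusted p = 4.06e-07 in limma). The call passed in all 21 alternative settings in which the transcript was tested. With VAL, 3 of 5 mice were at 10.04 to 14.6 FPKM and the other two under 0.5 FPKM. With ETH, 2 mice were at 7.44 and 9.87 FPKM, and with BAI, 1 mouse was at 7.99 FPKM. The remaining mice of those groups were under 0.5 FPKM, and the transcript was not in the gastrodin table used here. Thus, within each of the ETH, BAI and VAL groups, hearts differed in whether this transcript was listed near 0 or at several FPKM or more. The 5 hearts given Ang II alone were all near 0, which the choice of a transcript with groups that do not overlap favoured. The compound groups had no part in that choice, so their spread cannot be set against that of the hearts given Ang II alone.

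MERGE.13254.5 was the second lower transcript by the rule. Its level was 4.48, 2.66, 3.31, 1.65 and 6.82 FPKM in the Control mice. In the Ang II mice it was listed at 0 in 4 and at 0.00327 FPKM in 1 (log2 fold change −2.16, SE 0.26, adjusted p = 0.0232 in limma). The locus had 1 other model, which did not pass the adjusted threshold (log2 fold change 1.40, SE 0.39, adjusted p = 0.366 in limma). That model was at 0, 2.35, 1.13, 2.88 and 0 FPKM in Control and at 4.25, 4.28, 3.22, 4.03 and 4.98 FPKM in Ang II. The locus total was 5.06 ± 1.01 FPKM in Control and 4.15 ± 0.632 FPKM in Ang II (log2 fold change −0.23, SE 0.14, adjusted p = 0.653 in limma). The ranges of the total overlapped, from 4.45 to 6.82 FPKM and from 3.22 to 4.98 FPKM. In Control mouse 5193 the other model was already above MERGE.13254.5, and in the Ang II mice it held almost all of the locus total. MERGE.13254.5 was at 1 FPKM or more in 3 of 5 mice with ETH, 3 with BAI, 3 with GAS and 5 with VAL. Its call passed in 7 of 20 alternative settings, with an adjusted p up to 0.123.

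**Figure D1:**
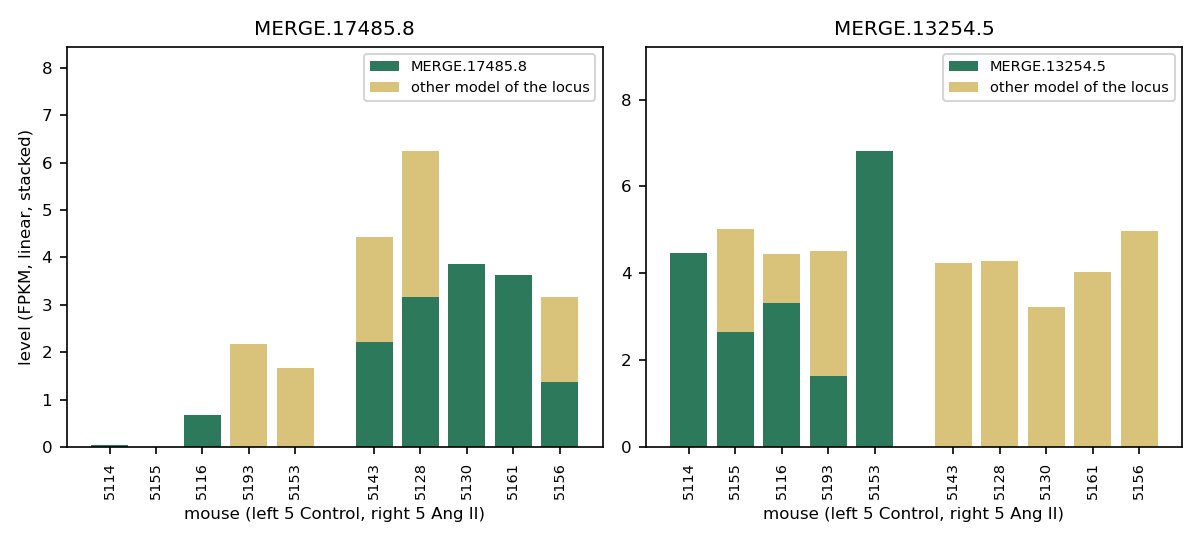
Level in FPKM (linear axis) of each model of 2 loci, stacked, in each of the 5 Control and 5 Ang II mice. In the right panel MERGE.13254.5 fills part or all of the bar in every Control mouse and almost none in the Ang II mice, while the bar heights of the groups overlap. In the left panel the Ang II bars are all above the highest Control bar.

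The other 4 transcripts that fell at the adjusted threshold were 1 Ensembl transcript and 3 merged models, given here without identifiers. The first merged model was at 3.66 ± 0.446 FPKM in Control and 0.238 ± 0.126 FPKM in Ang II (log2 fold change −1.91, adjusted p = 0.000289 in limma). The second merged model was at 1.45 ± 0.249 FPKM in Control and at 0 in 4 of 5 Ang II mice (log2 fold change −1.24, adjusted p = 0.00942 in limma). It belonged to a locus of 14 models, whose total was 35.5 ± 10.4 FPKM in Control and 31.3 ± 3.30 FPKM in Ang II (adjusted p = 0.827 in limma). The Ensembl transcript was at 2.95 ± 0.476 FPKM in Control and 0.197 ± 0.356 FPKM in Ang II (log2 fold change −1.75, adjusted p = 0.0153 in limma). The last merged model was at 2.15 ± 0.646 FPKM in Control and at 0 in 3 of 5 Ang II mice (log2 fold change −1.50, adjusted p = 0.0332 in limma). The first and the last were the only listed models of their loci. Of the 4 called merged models, 2 therefore lay in loci whose listed total did not pass, and 2 had no other listed model.

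**Figure D2:**
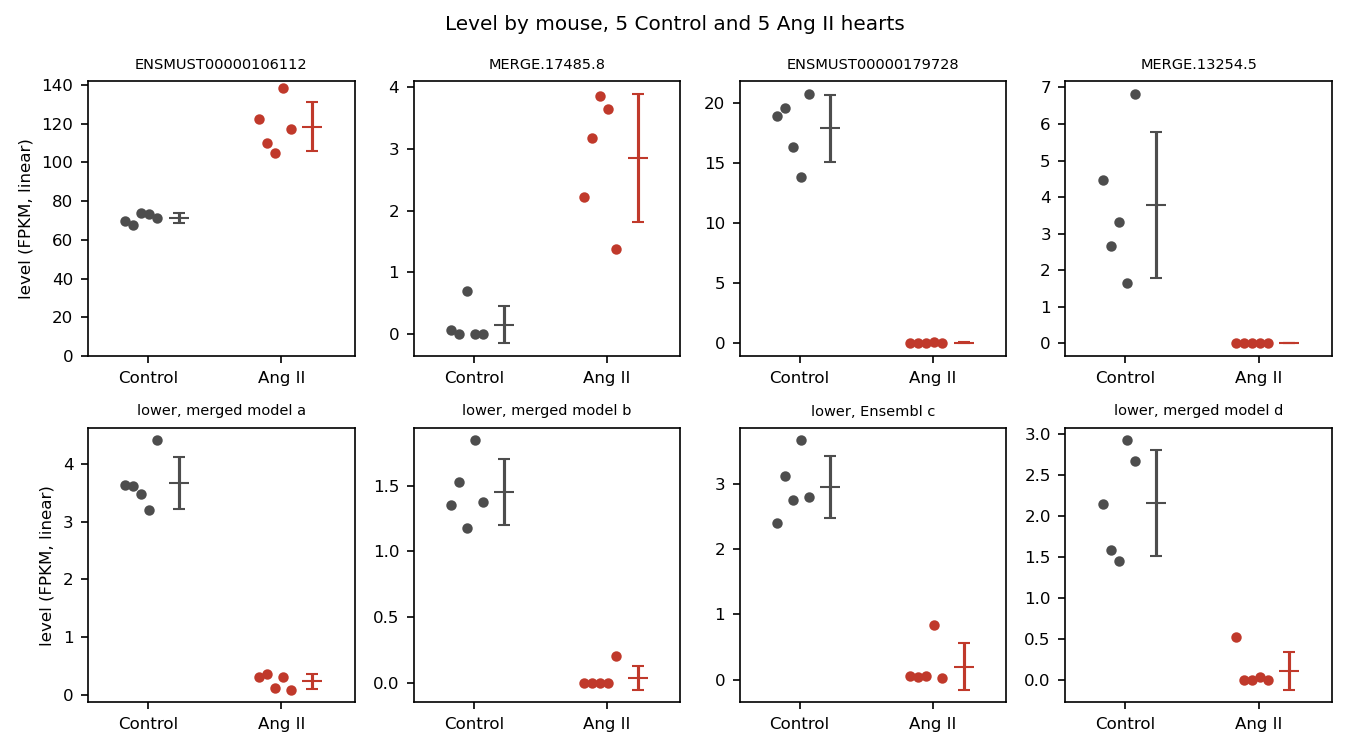
Level in FPKM (linear axes) of the 7 transcripts past the adjusted threshold and of MERGE.17485.8, with 1 point per mouse and the mean ± SD of 5 mice beside the points. Groups do not overlap in any panel. The 6 lower transcripts lie under 1 FPKM in the Ang II mice, and ENSMUST00000106112 goes from about 71.2 to 119 FPKM.

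This near all-or-none pattern was found in 5 tested transcripts, which were at 1 FPKM or more in every Control mouse and under 0.5 FPKM in every Ang II mouse, 4 of them among the 6 lower calls. The reverse pattern was found in 0 transcripts. The level filter bears on both patterns alike. A transcript under 1 FPKM in all Ang II mice was tested only where all 5 Control mice reached 1 FPKM, and the same held with the groups exchanged. Presence in every mouse of the higher group is therefore set by the filter. The difference between 5 and 0 was not tested. Among the 13498 transcripts that did not reach the level filter, 161 were listed at 0 in all Ang II mice and 190 in all Control mice. The transcripts that did not reach the filter have no test here.

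A separation of all 5 mice from all 5 mice was found for 207 transcripts above Control (1.13% of those tested) and 207 below (1.13%). At a fold of 2 and an unadjusted p under 0.05, 146 were higher (0.795%) and 169 lower (0.921%). Of these, 50% of the higher and 42.6% of the lower transcripts were listed at 0 in at least 1 mouse, against 14.6% of all tested. Merged models made up 39.7% of the higher and 39.6% of the lower transcripts at that fold, against 22.5% of all tested. When merged models with other models at their locus and an unadjusted p under 0.05 were read as locus totals, 82 of 97 higher and 122 of 137 lower ones kept their direction, and 35 and 50 kept an unadjusted p under 0.05. Their median log2 fold change went from 0.89 to 0.39 for the higher and from −0.86 to −0.46 for the lower models. These models were picked by their own p, and each locus total includes the picked model. The kept direction, the kept p and the smaller value at the locus are therefore partly set by that choice.

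**Figure D3:**
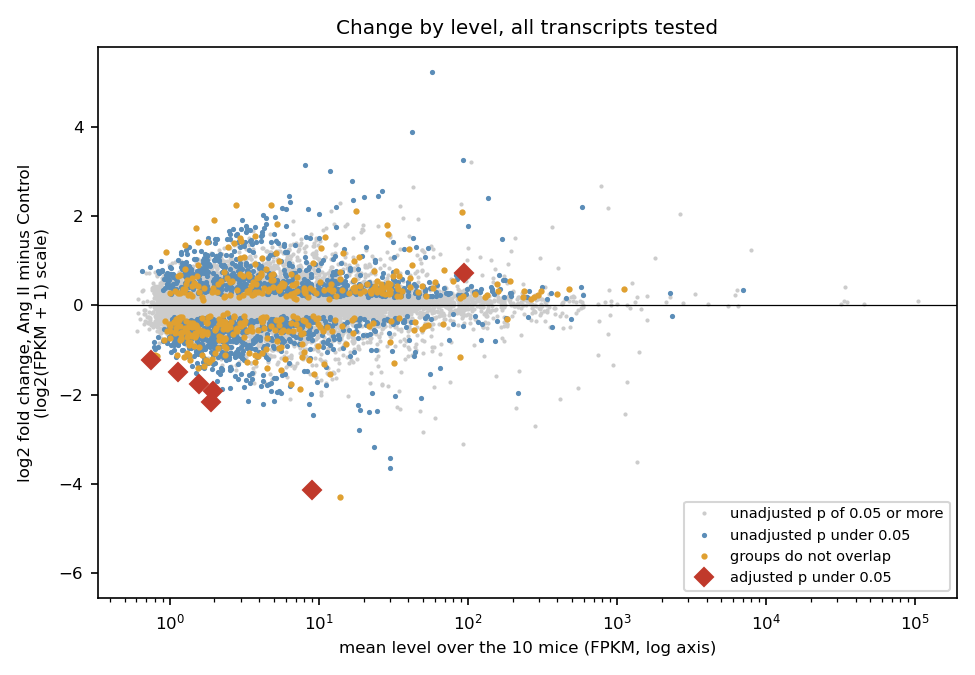
Log2 fold change, Ang II minus Control, on the log2(FPKM + 1) scale against the mean level over 10 mice in FPKM (log axis) for 18354 tested transcripts. Diamonds are the 7 transcripts past the adjusted threshold, 6 of which lie at a low mean level and below 0. Other transcripts of large change are not past it.

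The direction of the changes at the unadjusted threshold differed by the level of the transcript. Among the 1735 transcripts of a mean of 20 FPKM or more, 193 rose (11.1%) and 75 fell (4.32%) with an unadjusted p under 0.05. In this class 63 above (3.63%) and 14 below (0.807%) had groups that did not overlap. Among the 6147 transcripts under 2 FPKM, 178 were higher (2.90%) and 287 lower (4.67%). This split was smaller under another normalization. When all libraries were brought to the same distribution by quantile normalization, 166 abundant transcripts were higher (9.57%) and 140 lower (8.07%). Groups did not overlap in 44 (2.54%) against 38 (2.19%). Over all 18354 tested, 961 were higher and 948 lower after this step, and 230 against 306 did not overlap. In the class of 100 FPKM or more, 10 (2.75%) against 3 (0.824%) still did not overlap. The share of higher transcripts among the calls at 20 FPKM or more went from 72.0% to 54.2%. The median log2 fold change of the abundant transcripts was 0.06 before and 0.02 after this step. The excess of higher over lower abundant transcripts was thus present in the values as deposited and much smaller after quantile normalization. The higher count went from 193 to 166, whereas the lower count went from 75 to 140. At 2 to 5 FPKM, 235 were higher and 271 lower as deposited, against 300 and 283 after quantile normalization. At 5 to 20 FPKM, 240 and 197 became 243 and 259, so the larger count changed direction in both classes. The median log2 fold change over all tested transcripts went from −0.0057 to 0.0055. The level classes were chosen after the values were seen.

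**Figure D4:**
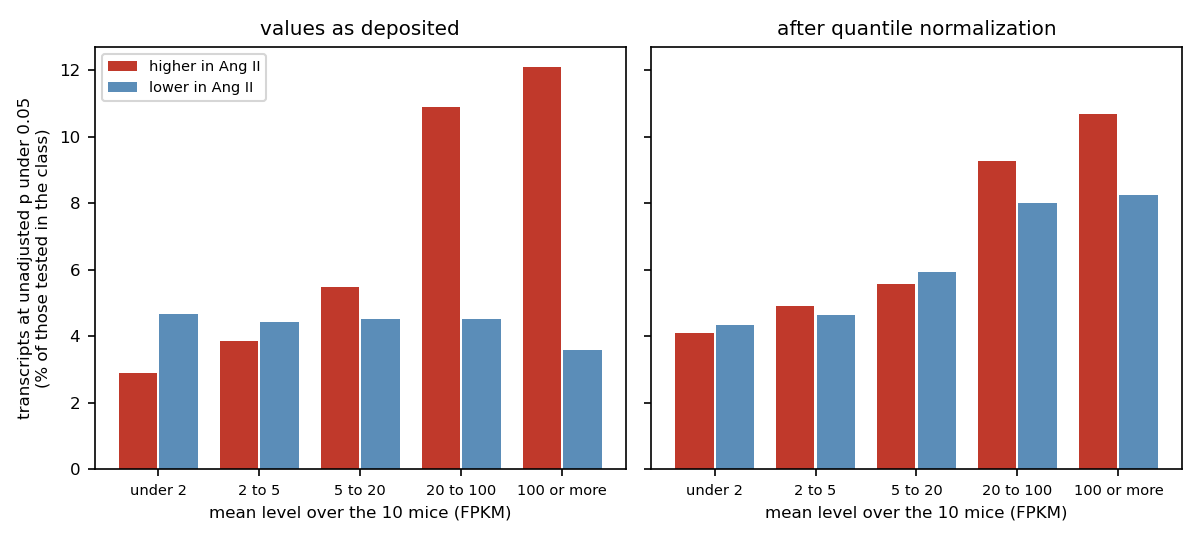
Percentage of tested transcripts at an unadjusted p under 0.05 that were higher or lower in Ang II, by mean level over 10 mice (FPKM), with the values as deposited (left) and after quantile normalization (right). The bars for higher and lower transcripts differ most at 20 FPKM and above on the left, and differ less there on the right. On the right they differ most at 100 FPKM or more (10.7% higher, 8.24% lower).

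The abundant transcripts that separated the groups changed little. The median size of the log2 fold change was 0.37 for the 63 higher and 0.46 for the 14 lower transcripts, and 4 and 2 of them reached 1. As examples, chosen after their values were seen, 1 Ensembl transcript was at 13.8, 19.9, 7.42, 16.8 and 6.21 FPKM in Control and at 54.2, 54.8, 36.9, 39.6 and 35.9 FPKM in Ang II (log2 fold change 1.80, SE 0.30, adjusted p = 0.159 in limma). Another was at 30.9, 62.6, 39.6, 27.2 and 68.0 FPKM in Control and at 17.4, 7.21, 24.1, 21.9 and 20.2 FPKM in Ang II (log2 fold change −1.29, SE 0.35, adjusted p = 0.359 in limma). The groups did not overlap in either, and neither passed the adjusted threshold.

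Variation between mice of the same treatment was large for some of the most abundant transcripts. The most abundant transcript of all was at 84482 to 117099 FPKM in Control and 103051 to 120257 FPKM in Ang II (log2 fold change 0.10, SE 0.11, adjusted p = 0.810 in limma). Of the 20 most abundant transcripts, 5 differed over 100-fold between mice of the same group. The 6th by level was at 49687 to 63832 FPKM in 4 Control mice and 1.58 FPKM in the other one, and at 50819 and 52216 FPKM in 2 Ang II mice and 0.962 to 1.36 FPKM in the other 3 (log2 fold change −6.00, SE 4.12, adjusted p = 0.71 in limma). Over all tested transcripts the median SD on the log2 scale was 0.347 in Control and 0.327 in Ang II.

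Each mouse was then read against changes called without it. For every mouse in turn, transcripts at an unadjusted p under 0.05 were taken from the fit of the other 9 mice, and the mouse was placed on 1 side of the midpoint of the 2 group means. In Control, 60.9%, 59.0%, 47.5%, 52.0% and 61.5% of these transcripts lay on the side of the mouse's own group, for mice 5114, 5155, 5116, 5193 and 5153. In Ang II the share was 51.0%, 68.0%, 58.1%, 62.0% and 57.8% for mice 5143, 5128, 5130, 5161 and 5156. The median over the 10 mice was 58.6%, against 52.8% over all tested transcripts, for which single mice gave 48.3% to 57.0%. In Control mouse 5116 the share was below that over all transcripts (47.5% against 48.3%), and in Control mouse 5193 both were 52.0%. Control mouse 5116 was the lowest, and for transcripts called lower in Ang II without it, 35.3% lay on its own side. With a fold of 2 added, the median share was 52.7%. This is a description, and the difference from all transcripts was not tested.

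**Figure D5:**
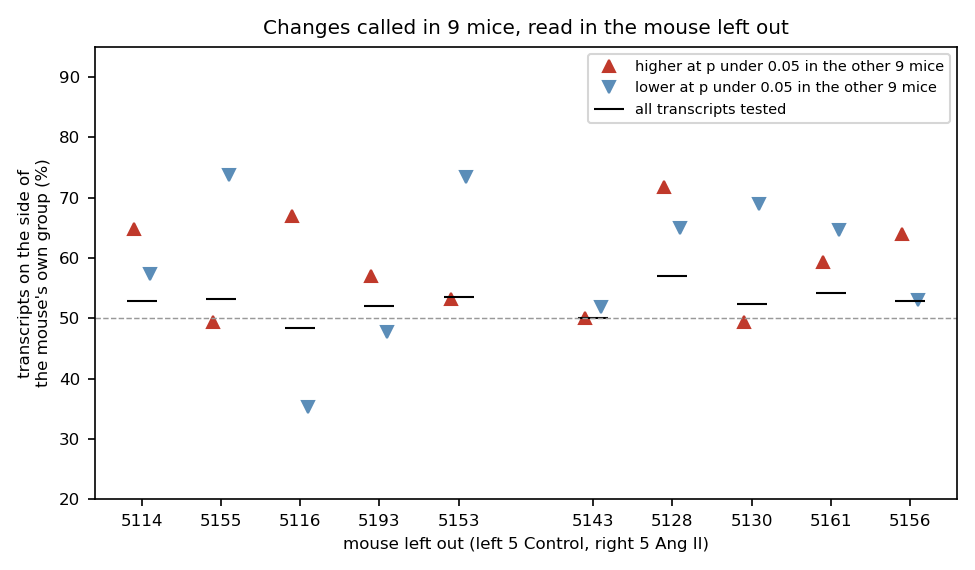
Percentage of transcripts on the side of the mouse's own group, for changes called at an unadjusted p under 0.05 in the other 9 mice (upward triangles, higher in Ang II; downward triangles, lower) and for all tested transcripts (bars), by mouse left out. The dashed line marks 50%. The bars lie between 48.3% and 57.0%, and the downward triangle of Control mouse 5116 is at 35.3%.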

How the data were processed

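RNA was sequenced after rRNA depletion from 5 Control and 5 Ang II hearts. The authors deposited 1 table per mouse with 1 value per transcript, on the mm10 build per the submitters' processing notes, which also name limma. The deposited values carry no stated unit in the sources used here and were read as FPKM. The aligner, the assembler and the depth were not given in the sources used here, so no interval from counts is possible. Every transcript listed had a mean of at least 0.5 in 1 of the 2 groups, and transcripts below that were not analysed here. The study's methods name a count test, which these values do not allow. The methods describe 6 mice per group and the labels 5.

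Values were tested as log2(FPKM + 1) with limma 3.58.1 in R 4.3.3 (trended variance, 2-sided, no covariate), for transcripts at 1 or more in 5 of 10 mice, with Benjamini-Hochberg adjustment over all tested. The script was tested on simulated data. Library sums used exact permutation tests over 252 assignments. The rule named, in each direction, the first 2 transcripts by size of log2 fold change at an adjusted p under 0.05 with groups that did not overlap and a mean of 1 in the higher group, filled by the smallest p. Members and lists were chosen with earlier results of these data known. Gene lists and marker lists could not be used, since 0 of 49997 rows of the reference table held an Ensembl identifier. Alternatives were another pseudocount, other filters, quantile normalization, no trend, all 6 groups in 1 fit, Ensembl transcripts alone and leaving out each mouse. Leaving out each mouse with the same transcripts and summing merged models by locus were added after seeing the data. Each mouse is a separate animal.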

Additional observations from a re-analysis of the deposited data

Results flagged for a closer look

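Of 26 checks of single groups of 5 mice, 5 had 1 mouse far from the other 4 by Dixon's test. Chance gives this in about 1 of 20 groups of normally spread values. In 2 of the 5 cases the other 4 mice were at 0, so that any level above 0 meets the test. MERGE.17485.8 was at 0.691 FPKM in Control mouse 5116, while the other Control mice were at 0 to 0.0570 FPKM. MERGE.13254.5 was at 0.00327 FPKM in Ang II mouse 5156, with the other Ang II mice at 0. Among the called transcripts without identifiers, the second merged model was at 0.205 FPKM in Ang II mouse 5156, the Ensembl transcript at 0.834 FPKM in Ang II mouse 5161, and the last merged model at 0.529 FPKM in Ang II mouse 5143. In 4 of the 5 cases the mouse lay in the Ang II group, whose other mice were at or near 0.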

How the results depend on the processing

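No paired analysis was possible because the labels give the groups no shared replicate numbers, the numbers used here being names given in accession order to separate animals. Fold changes of named transcripts and library differences kept their sign. Of the counts at an adjusted p under 0.05, 1 higher became 2 without a filter on low values, 0 after quantile normalization, 0 in limma without trend and 15 with all 6 groups in 1 fit. The 6 lower became 1 at a mean of 5 or more, 2 with Ensembl transcripts alone and 15 with all 6 groups. Of the 7 calls, 4 were tested in the fit of all 6 groups and 1 was called there. The 6 lower calls were all kept without a filter, after quantile normalization and in limma without trend, whereas at a pseudocount of 0.1 all 6 were tested, 3 of them were kept and 4 transcripts were lower in all. At an unadjusted p under 0.05, the 846 higher were 453 at a mean of 5 or more, and the 830 lower were 1521 without a filter, 272 at a mean of 5 or more and 1300 with all 6 groups. With a fold of 2, the 146 higher and 169 lower were 236 and 324 at a pseudocount of 0.1, 61 and 58 at a mean of 5 or more, and 90 and 102 with Ensembl transcripts alone. Transcripts without overlap were 121 above at a mean of 5 or more, and 378 below without a filter and 65 at a mean of 5 or more. Transcripts of a mean of 20 FPKM or more that were lower were 140 after quantile normalization. A different number of transcripts is tested under the filters, with Ensembl transcripts alone and with all 6 groups. The cause of the other shifts was not tested.

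Leaving out each mouse gave 0 to 4 higher and 0 to 11 lower calls at the adjusted threshold, 569 to 854 higher and 561 to 1030 lower at the unadjusted one, 128 to 158 and 126 to 189 with a fold of 2, 256 to 390 above and 220 to 484 below without overlap, and 120 to 234 higher and 41 to 102 lower at a mean of 20 or more. Without any 1 Control mouse, none of the 6 lower transcripts was tested, since the filter needs 5 mice. On the same transcripts the calls were 0 to 6 higher and 3 to 10 lower, and 3 to 5 of the 6 were kept; the counts were 589 to 875 and 615 to 1078 at the unadjusted threshold, 138 to 175 and 146 to 212 with a fold of 2, and 263 to 399 and 253 to 517 without overlap. On the same transcripts ENSMUST00000106112 lost its call without Control mouse 5114, 5155 or 5153 or Ang II mouse 5143 or 5156 (adjusted p 0.0510 to 0.0812 in limma), and MERGE.13254.5 kept it in 2 of 10 fits (adjusted p 0.00554 to 0.0959). The difference in summed level was 1967 to 19151 FPKM, and that in transcripts at 1 FPKM or more −1117 to −313.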

Other observations

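Of the 20 most abundant transcripts, 4 more differed over 100-fold between mice of at least 1 group. The 8th by level was at 30405 FPKM in 1 Control mouse and at 22983 and 26072 FPKM in 2 Ang II mice, and at 0.279 to 9.45 FPKM in the other 7. The 14th was at 11042 FPKM in 1 Control mouse and at 9587 to 10868 FPKM in 3 Ang II mice, with under 1 FPKM in the remaining 6. The 16th was at 5616 and 15178 FPKM in 2 Control mice and at 18557 FPKM in 1 Ang II mouse, with under 0.5 FPKM in the remaining 7. Neither the 14th nor the 16th reached the level filter, so they were not tested. The 19th was at 0 in 1 Control mouse and at 634 to 4000 FPKM in the other 4, and at 208 to 6782 FPKM in the Ang II mice.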
